A study of Mus musculus with 8 samples.

Results

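The 10 genes examined here are markers of the surface and identity of mesothelium: Msln, Wt1, Upk3b, Upk1b, Muc16, Lrrn4, Calb2, Gpm6a, Bnc1 and Pdpn. They were chosen by name, with earlier results of these data known, and all 10 were found by their Entrez identifiers among the 36528 identifiers measured. Primary mesothelial cells of mouse omentum were sequenced for RNA in 4 libraries labelled BAP1 KO and 4 labelled WT. BAP1 is a nuclear deubiquitinase that acts on histone H2A and is a tumour suppressor lost in many mesotheliomas. The labels give the 2 genotypes, the tissue and the cell type. The strain, age and sex of the mice, the way BAP1 was removed, the days in culture and any treatment were not stated, nor was it said which libraries, if any, share an animal. The p-values therefore measure only how these libraries vary, which may be technical variation.

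Mesothelium is the single layer of cells that covers the organs and walls of the body cavities and secretes a lubricating fluid. It arises from mesoderm yet carries epithelial features, and its cells can take on a fibroblast-like form when they leave the layer. Mesothelin and the mucin MUC16 (CA125) are surface glycoproteins that bind each other and are raised in human mesothelioma and ovarian cancer, and WT1, calretinin and podoplanin are stained to identify mesothelial tumours.

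Of the markers with a promoter sequence available, only Bnc1 had a start site rich in CpG. Promoters rich in CpG are the usual place of action of the Polycomb complexes whose ubiquitin mark BAP1 removes. A promoter of 300 bases, 250 before and 50 after an annotated start, was found in the RefSeq table (GRCm38.p6) for 6 of the 10 markers. The 4 shown belong to a pair of markers that rose in BAP1 KO (Muc16 and Bnc1), to Lrrn4, which fell, and to Upk3b, which did not pass the test. Each is written 5′ to 3′ on the strand of the gene, and the capitals mark CpG dinucleotides.
Muc16: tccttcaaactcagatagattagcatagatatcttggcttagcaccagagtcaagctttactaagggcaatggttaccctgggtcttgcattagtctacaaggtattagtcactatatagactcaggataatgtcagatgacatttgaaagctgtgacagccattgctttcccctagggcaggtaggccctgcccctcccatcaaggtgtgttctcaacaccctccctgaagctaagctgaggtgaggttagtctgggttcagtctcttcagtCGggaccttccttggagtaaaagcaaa
Bnc1: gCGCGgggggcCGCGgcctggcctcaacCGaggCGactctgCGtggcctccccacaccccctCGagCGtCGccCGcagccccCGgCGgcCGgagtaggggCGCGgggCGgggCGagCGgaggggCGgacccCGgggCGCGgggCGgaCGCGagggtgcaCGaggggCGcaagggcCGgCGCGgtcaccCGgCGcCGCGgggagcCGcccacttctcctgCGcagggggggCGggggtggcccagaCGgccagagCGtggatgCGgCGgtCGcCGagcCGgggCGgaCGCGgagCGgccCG
Lrrn4: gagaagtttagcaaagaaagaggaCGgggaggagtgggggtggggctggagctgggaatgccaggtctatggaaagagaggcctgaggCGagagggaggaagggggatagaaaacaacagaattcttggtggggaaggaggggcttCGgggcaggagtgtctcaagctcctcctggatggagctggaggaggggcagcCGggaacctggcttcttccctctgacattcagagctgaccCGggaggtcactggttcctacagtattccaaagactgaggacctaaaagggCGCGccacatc
Upk3b: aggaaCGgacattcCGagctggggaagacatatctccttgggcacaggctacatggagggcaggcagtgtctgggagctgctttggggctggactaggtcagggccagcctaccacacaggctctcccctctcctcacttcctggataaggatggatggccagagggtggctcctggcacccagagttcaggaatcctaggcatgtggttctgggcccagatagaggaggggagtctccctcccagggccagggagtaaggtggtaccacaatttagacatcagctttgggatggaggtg
The Muc16 window (chr9:18674554-18674853, minus strand) holds 1 CpG, and 85.9% of the 32851 promoters in the table hold more. The Bnc1 window (chr7:81992250-81992549, minus strand) holds 50 CpG at a GC content of 83.3%, and only 0.715% of promoters hold more. The Lrrn4 window (chr2:132880813-132881112, minus strand) holds 7, the median of all promoters, and the Upk3b window (chr5:136038246-136038545, plus strand) holds 2. This Lrrn4 start lies inside the RefSeq span of the gene (132866686 to 132894010) and not at its 5′ end. Whether it is the start used in these cells was not tested. Of the windows not shown, that of Pdpn holds 7 and the 2 of Gpm6a hold 4 and 6. Of the 4 markers that rose, only Muc16 and Bnc1 had a promoter in the table, and these 2 lie near opposite ends of the range of CpG content. A link between CpG content and the changes was not tested. The letters GGAATG, known as the core of TEAD sites and searched on both strands, stand in the windows of Lrrn4, Upk3b and Gpm6a and in 14.7% of all promoters. The letters GCGGGGGCG, which EGR factors and WT1 are known to bind, stand in none of the 7 marker windows (Gpm6a has 2 starts) and in 2.91% of all promoters.

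Library totals ran from 69529361 to 82065082 counts in BAP1 KO and from 67069401 to 84861343 counts in WT. The targeted gene, Bap1 (chromosome 14, 31251352 to 31259930 on GRCm38), stood at 54.0, 53.0, 52.0 and 53.7 CPM (counts scaled to a common library total) in the BAP1 KO libraries, against 63.0, 62.6, 62.8 and 64.2 CPM in the WT libraries. Every BAP1 KO library was lower, and the mean was 84.2% of that of WT (log2 fold change -0.25 ± 0.03 SE, edgeR adjusted p = 2.1e-09). The exons behind these reads cannot be read from a count per gene.

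Of the 10 markers, 9 had enough counts to be tested and Calb2 did not. In BAP1 KO 4 rose (Muc16, Wt1, Upk1b and Bnc1), 3 fell (Msln, Gpm6a and Lrrn4) and 2 did not pass (Upk3b and Pdpn), in edgeR's quasi-likelihood test at an adjusted p below 0.05. Over all 16929 genes tested, 61.1% passed, 29.0% as higher and 32.1% as lower in BAP1 KO, so that 7 of 9 is not far from the share of genes in general. The median log2 fold change of the 9 markers was 0.0050, beside -0.0046 over all genes tested. The BAP1 KO and WT libraries did not overlap in CPM for 6 of the 9, which held for 53.8% of all genes tested. In 4 of them all BAP1 KO libraries lay above WT (25.1% of all genes tested) and in 2 all lay below (28.7%). Changes of at least 1.5-fold were seen in Msln and Muc16, and 14.8% of all genes passed with a change of that size. These are bulk samples, in which fewer cells of a type and less RNA per cell cannot be told apart.

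**Figure D1:**
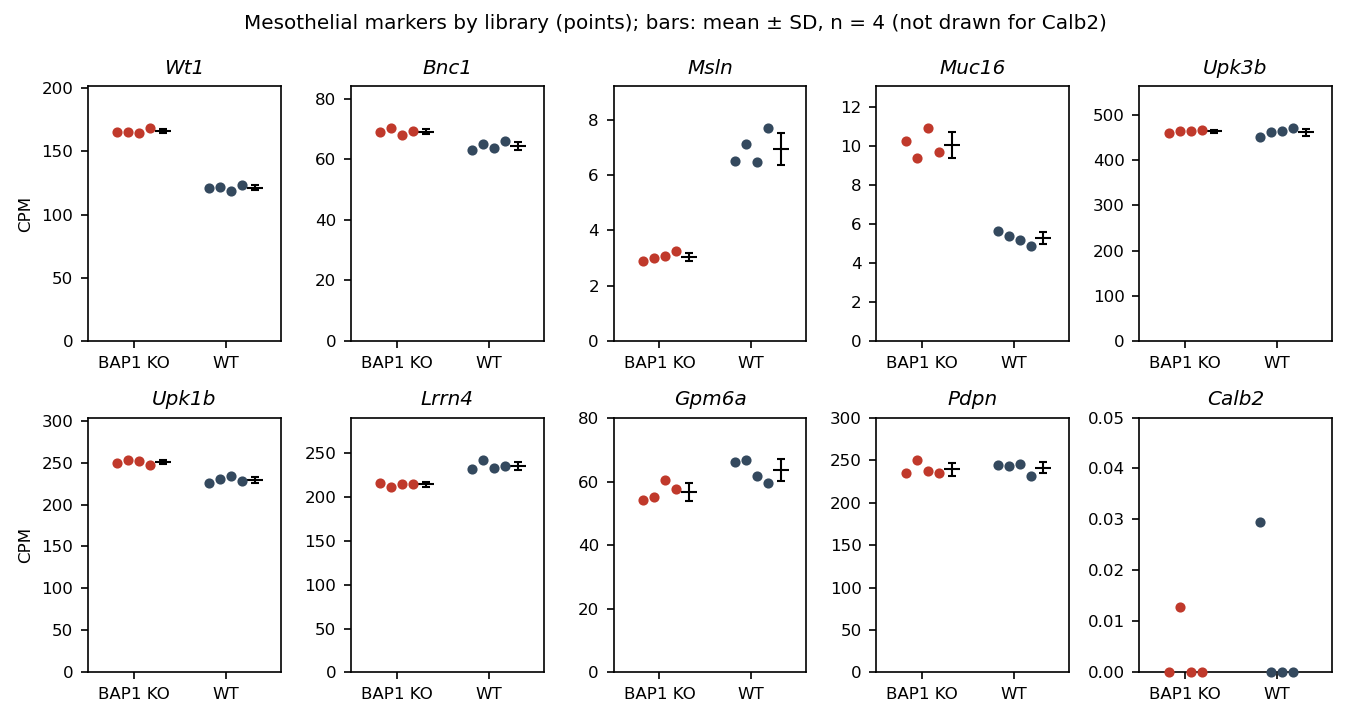
Expression of the 10 markers in each library (vertical axes: CPM, each from 0), BAP1 KO left of WT, with the mean ± SD of n = 4 beside the points; no mean is drawn for Calb2. Wt1 and Muc16 lie higher in all 4 BAP1 KO libraries and Msln lower, while Upk3b and Pdpn overlap.

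Both transcription factors among the markers rose. Wt1 (Entrez 22431; chromosome 2, 105126529 to 105173614), a zinc finger factor needed for the mesothelium and for kidney and gonad development, had 165, 165, 165 and 168 CPM in the BAP1 KO libraries, against 121, 122, 118 and 123 CPM in the WT libraries. All BAP1 KO libraries stood above all WT libraries, with a gap far larger than the spread within either genotype. The log2 fold change was 0.45 ± 0.02 (SE, n = 4 against 4), which is 1.37-fold (edgeR adjusted p = 2.5e-17). Bnc1 (Entrez 12173; chromosome 7, 81966657 to 81992299), the zinc finger protein basonuclin 1, had 68.9, 70.2, 68.1 and 69.3 CPM in the BAP1 KO libraries, against 63.0, 64.9, 63.6 and 66.0 CPM in the WT libraries. These groups did not overlap either, but the rise was small, 1.07-fold (log2 fold change 0.10 ± 0.03, edgeR adjusted p = 0.0014). Exons of Bnc1 overlap a pseudogene of the opposite strand over 98 bp, and the library kit does not mark the strand, so reads of either could have been counted for Bnc1.

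The surface pair of mesothelin and MUC16 moved in opposite directions. Msln (Entrez 56047; chromosome 17, 25748613 to 25754378), which encodes the glycolipid-anchored surface protein mesothelin, had 2.89, 3.02, 3.08 and 3.24 CPM in the BAP1 KO libraries, against 6.53, 7.12, 6.47 and 7.69 CPM in the WT libraries. The highest BAP1 KO library was below the lowest WT library by more than the range of either genotype, and the mean of BAP1 KO was 43.9% of that of WT (log2 fold change -1.19 ± 0.07, edgeR adjusted p = 7.8e-15). The level was low in both genotypes, on 200 to 251 counts in a BAP1 KO library and 442 to 605 counts in a WT library. Muc16 (Entrez 73732; chromosome 9, 18495445 to 18674821), which encodes the large membrane mucin that binds mesothelin, had 10.2, 9.36, 10.9 and 9.69 CPM in the BAP1 KO libraries, against 5.62, 5.39, 5.18 and 4.88 CPM in the WT libraries. No WT library reached the lowest BAP1 KO library, and the rise was 1.91-fold (log2 fold change 0.93 ± 0.06, edgeR adjusted p = 3.6e-14). The RefSeq span of Muc16 overlaps that of the lncRNA Gm39297 over 29525 bp. Gm39297 is not among the identifiers measured, and whether its reads were counted for Muc16 was not tested. Per gene length, in the authors' normalized RPKM, Msln exceeded Muc16 by 3.41-, 3.90-, 3.42- and 4.04-fold in the BAP1 KO libraries and by 14.1-, 16.0-, 15.1- and 19.1-fold in the WT libraries. Msln thus stayed the more abundant of the pair per length, by a smaller margin in every BAP1 KO library. This ratio was taken up after its values were seen and was given no test.

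The uroplakins showed 1 small rise and 1 marker that did not pass. Uroplakins are membrane proteins best known from the plaques of the bladder lining, and Upk3b is also a standard marker of mesothelium. Upk3b (Entrez 100647; chromosome 5, 136038496 to 136044993) had 459, 464, 464 and 467 CPM in the BAP1 KO libraries, against 451, 462, 464 and 470.0 CPM in the WT libraries. The BAP1 KO values all lay within the range of the WT values. The log2 fold change was 0.0050 with a 95% interval of -0.036 to 0.046 (edgeR adjusted p = 0.84). Upk1b (Entrez 22268; chromosome 16, 38773182 to 38800203), a uroplakin of the tetraspanin family, had 249, 253, 252 and 248 CPM in the BAP1 KO libraries, against 225, 231, 234 and 229 CPM in the WT libraries. The lowest BAP1 KO library stood above the highest WT library, and the rise was 1.09-fold (log2 fold change 0.13 ± 0.02, edgeR adjusted p = 4.7e-06).

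Of the other 3 surface proteins with counts, a pair that are also known from neurons fell slightly and podoplanin did not pass. Lrrn4 (Entrez 320974; chromosome 2, 132866686 to 132894010), a membrane protein with leucine-rich repeats, had 217, 211, 215 and 214 CPM in the BAP1 KO libraries, against 232, 242, 233 and 235 CPM in the WT libraries. Every BAP1 KO library was lower than every WT library (log2 fold change -0.14 ± 0.02, edgeR adjusted p = 2.2e-06). The RefSeq spans of Lrrn4 and its neighbour Crls1 overlap over 101 bp, though no exons of the 2 overlap in GENCODE vM21. Gpm6a (Entrez 234267; chromosome 8, 54779434 to 55060878), a membrane glycoprotein related to the proteolipid of myelin, had 54.2, 55.1, 60.5 and 57.5 CPM in the BAP1 KO libraries, against 66.0, 66.8, 61.6 and 59.6 CPM in the WT libraries. The groups overlapped, because BAP1 KO replicate 3 stood above WT replicate 4. The fall passed edgeR's test (log2 fold change -0.16 ± 0.04, adjusted p = 0.00049), while an exact two-sided permutation test of the 8 values gave p = 0.057. Gpm6a varied by more than counting error between libraries. Its coefficient of variation was 4.94% in BAP1 KO and 5.44% in WT, where its counts alone would give 1.53% and 1.45%. Such excess was not particular to Gpm6a and Pdpn. Upk3b in WT varied by 1.72% where counts alone would give 0.537%, while Msln and Bnc1 in BAP1 KO stayed below their counting error. The RefSeq span of Gpm6a overlaps that of the lncRNA LOC115486929, which is not among the identifiers measured, over 7782 bp.

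Pdpn (Entrez 14726; chromosome 4, 143267409 to 143299564), the mucin-like protein podoplanin that fibroblasts and lymphatic endothelium also carry, had 235, 251, 237 and 235 CPM in the BAP1 KO libraries, against 244, 243, 246 and 232 CPM in the WT libraries. BAP1 KO replicate 2 was the highest of all 8 and WT replicate 4 the lowest, so the ranges overlapped. Its coefficient of variation was 3.09% in BAP1 KO and 2.71% in WT, where counts alone would give 0.746% and 0.743%. The log2 fold change was -0.0098 with a 95% interval of -0.059 to 0.039 (edgeR adjusted p = 0.75). The interval for Upk3b and that for Pdpn both leave room only for changes smaller than the change of Upk1b.

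Calb2 (Entrez 12308; chromosome 8, 110142526 to 110168212), which encodes the calcium-binding protein calretinin, was at or near 0 in both genotypes. It had 0, 1, 0 and 0 counts in the BAP1 KO libraries, against 2, 0, 0 and 0 counts in the WT libraries. A count of 0 allows up to 3 counts, for counting error only. In the libraries with a count of 0 this is 0.0368 to 0.0433 CPM in BAP1 KO and 0.0353 to 0.0414 CPM in WT. This limit does not cover the libraries with 1 and 2 counts. Calb2 was therefore not detectable at this depth and was left out by the filter on low counts. The defining markers of mesothelium were thus present in part. Upk3b, Upk1b, Lrrn4, Pdpn and Wt1 were abundant, while Msln was low and Calb2 was not detected.

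**Figure D2:**
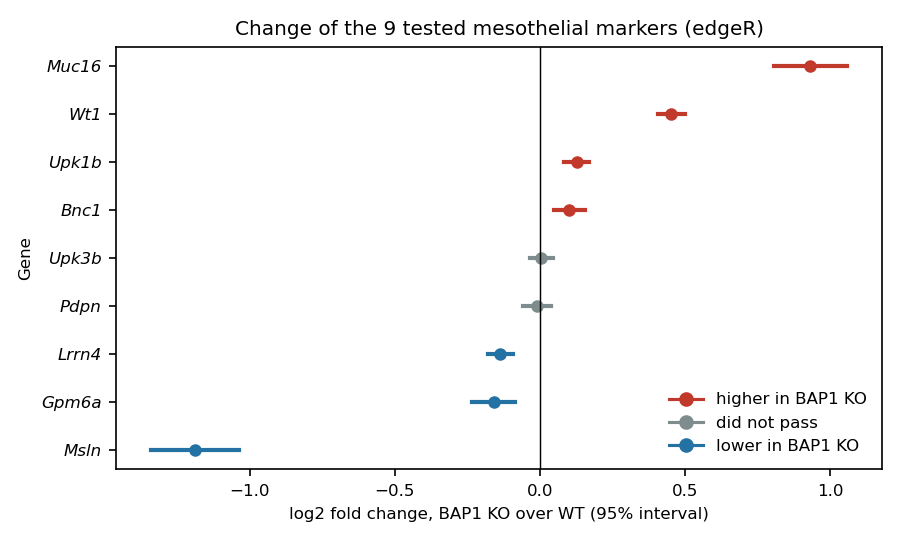
Log2 fold change (BAP1 KO over WT) of the 9 tested markers with 95% intervals from edgeR, n = 4 libraries per genotype. Muc16 at 0.93 and Msln at -1.19 mark the ends, and the intervals of Upk3b and Pdpn include 0.

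The levels of the markers spanned more than the changes between genotypes. In normalized RPKM, which divides by gene length, Upk3b led with 226.7 ± 1.11 (SD, n = 4) in BAP1 KO and 224 ± 3.90 in WT, above 98.7% and 98.8% of the tested genes. Pdpn followed at 129.7 ± 3.81 in BAP1 KO and 129.5 ± 3.45 in WT, then Upk1b at 122 ± 1.13 in BAP1 KO and 111 ± 1.69 in WT. Lrrn4 stood at 61.4 ± 0.82 RPKM in BAP1 KO and 66.9 ± 1.27 RPKM in WT, and Wt1 at 53.4 ± 0.478 RPKM in BAP1 KO and 38.7 ± 0.651 RPKM in WT. The excess of Lrrn4 over Wt1 was 1.15-fold in BAP1 KO and 1.73-fold in WT. Gpm6a came next at 15.9 ± 0.769 RPKM in BAP1 KO and 17.6 ± 0.946 RPKM in WT, and Bnc1 at 14.8 ± 0.172 RPKM in BAP1 KO and 13.6 ± 0.286 RPKM in WT. Far below stood Msln, at 1.36 ± 0.0626 RPKM in BAP1 KO and 3.08 ± 0.255 RPKM in WT, and Muc16, at 0.370 ± 0.0251 RPKM in BAP1 KO and 0.193 ± 0.0114 RPKM in WT. The order was the same in both genotypes, and no neighbours among these 9 overlapped in range within a genotype. The closest were Pdpn and Upk1b in BAP1 KO, 1.06-fold apart, and Gpm6a and Bnc1 in BAP1 KO, 1.08-fold apart.

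**Figure D3:**
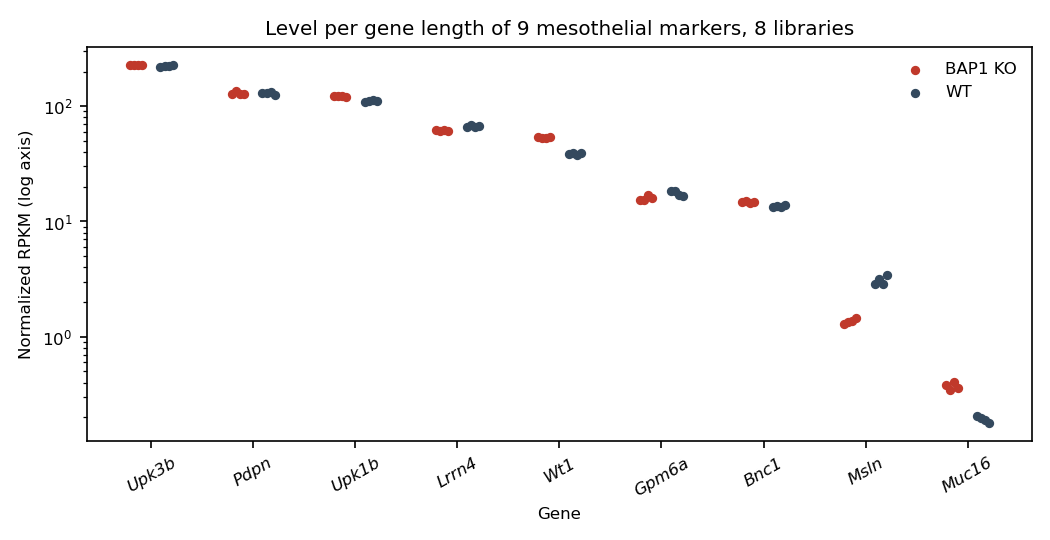
Normalized RPKM (log axis) of 9 markers in the 4 BAP1 KO and 4 WT libraries, ordered by the mean in WT; Calb2, with 0 counts in 6 libraries, is not drawn. Upk3b lies highest, near 227 in BAP1 KO and 224 in WT, and Muc16 lowest, at 0.370 in BAP1 KO and 0.193 in WT.

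A ratio of counts within a library does not depend on how libraries are scaled, so each tested marker was also set against Upk3b, the most abundant of them. Msln had 0.629 to 0.693% as many counts as Upk3b in BAP1 KO and 1.39 to 1.64% in WT. Muc16 had 2.02 to 2.35% in BAP1 KO and 1.04 to 1.25% in WT, and Wt1 had 35.5 to 36.0% in BAP1 KO and 25.5 to 26.9% in WT. Lrrn4 had 45.5 to 47.2% in BAP1 KO and 50.0 to 52.4% in WT, and Upk1b had 53.0 to 54.5% in BAP1 KO and 48.6 to 50.3% in WT. Bnc1 had 14.7 to 15.1% in BAP1 KO and 13.7 to 14.0% in WT. None of these 6 ratios overlapped between genotypes, and each reached the smallest two-sided p that an exact permutation of 4 against 4 allows, 0.029 (0.038 adjusted over the 8 pairs). They belong to the same 6 markers whose CPM did not overlap, which held for 53.8% of all genes tested. Because Upk3b differed so little between genotypes, the ratios repeat those differences on another scale and are not further results. Gpm6a had 11.8 to 13.0% of the Upk3b counts in BAP1 KO and 12.7 to 14.6% in WT, which overlapped (exact permutation p = 0.057, adjusted 0.065). Pdpn had 50.3 to 54.0% in BAP1 KO and 49.3 to 54.2% in WT (exact permutation p = 0.66, adjusted 0.66).

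Other genes of mesothelium also moved both ways, more of them downward. Of a list of 30, 29 were tested, and 7 rose, 19 fell and 3 missed the threshold. The share called was 89.7%, beside 61.1% of all genes tested, of which 29.0% were higher and 32.1% lower. The median log2 fold change was -0.20, beside -0.0046 over all genes tested. Only Itln1, which encodes a lectin of omental mesothelium, was not tested, with 0 counts in BAP1 KO and 2 counts in WT over the 4 libraries each. C3, the central complement protein, rose to 1890.2 ± 19.9 CPM in BAP1 KO, against 1239 ± 26.7 CPM in WT (SD, log2 fold change 0.61 ± 0.02, edgeR adjusted p = 3.5e-22). Cldn15, a claudin of tight junctions, rose by 0.81 ± 0.03, and Igfbp5, which binds insulin-like growth factors, by 0.92 ± 0.07 on the log2 scale. Efemp1, a matrix fibulin, averaged 37.3 CPM in BAP1 KO and 67.0 CPM in WT (log2 fold change -0.84 ± 0.03). Aldh1a2, which makes retinoic acid, averaged 81.3 CPM in BAP1 KO and 134 CPM in WT (-0.72 ± 0.02), and Tcf21, a transcription factor of mesenchyme, 33.0 CPM in BAP1 KO and 55.9 CPM in WT (-0.76 ± 0.03). The paired keratins Krt8 and Krt18 of simple epithelia fell, with log2 fold changes of -1.57 ± 0.13 and -1.38 ± 0.07, Krt8 at 0.793 CPM in BAP1 KO and 2.35 CPM in WT and Krt18 at 4.47 CPM in BAP1 KO and 11.7 CPM in WT. These 8 genes were named for the smallest adjusted p in the list, so it follows largely from that choice that their genotypes did not overlap. Over all genes tested, 53.8% did not overlap.

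**Figure D4:**
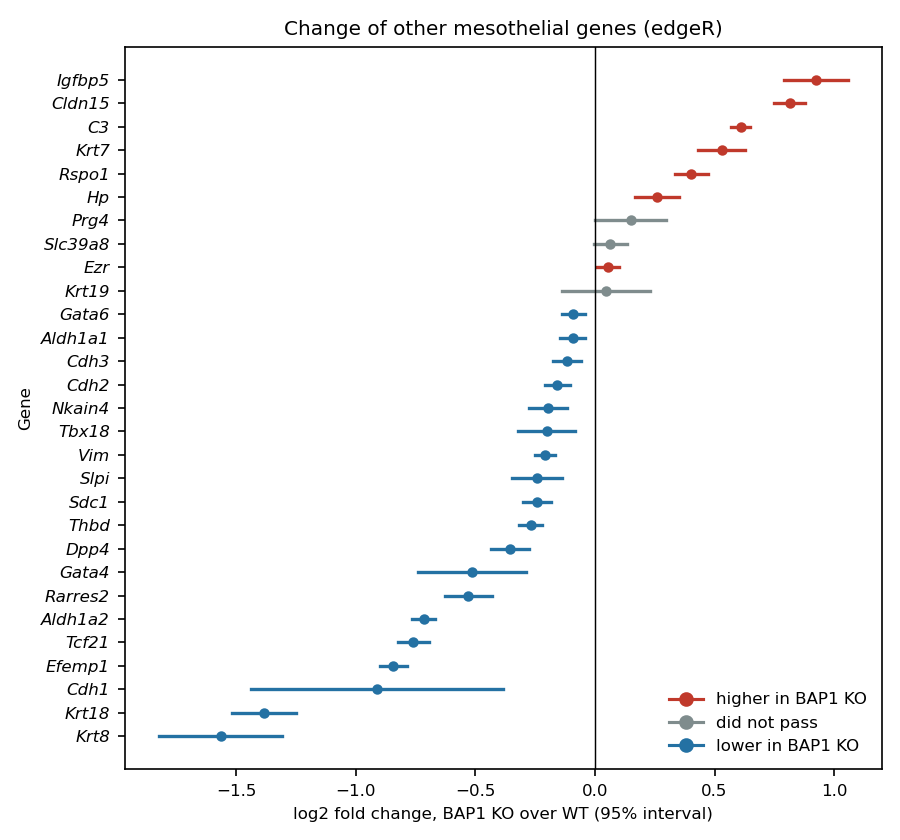
Log2 fold change (BAP1 KO over WT) of 29 other mesothelial genes with 95% intervals from edgeR, n = 4 libraries per genotype. Igfbp5 lies highest at 0.92 and Krt8 lowest at -1.57; 7 rose, 19 fell and 3 did not pass.

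Relatives of the markers by sequence family, in a list that also holds the podoplanin receptor Clec1b, were mostly scarce. Of the 18 genes listed, 10 had enough counts to be tested, and 3 rose, 3 fell and 4 missed the threshold. The share called, 60.0%, is near the 61.1% of all genes tested. Their median log2 fold change was 0.03. Bnc2, the paralogue of Bnc1, rose to 33.1 CPM in BAP1 KO, against 26.3 CPM in WT (log2 fold change 0.34 ± 0.04, edgeR adjusted p = 2.7e-09), the same direction as Bnc1 itself. Gpm6b, the paralogue of Gpm6a, fell to 2.48 CPM in BAP1 KO, against 5.91 CPM in WT (-1.25 ± 0.08, edgeR adjusted p = 1.3e-14). Lrrn2 and Lrrn3, relatives of Lrrn4, fell as well, with log2 fold changes of -0.10 ± 0.03 and -0.93 ± 0.16, Lrrn2 to 38.4 CPM in BAP1 KO, against 41.2 CPM in WT. Bnc2, Gpm6b, Lrrn2 and Lrrn3 thus moved in the direction of their marker, while Muc1, a relative of Muc16, did not pass (log2 fold change 0.29, edgeR adjusted p = 0.099). The uroplakin Upk1a was called higher at 0.368 CPM in BAP1 KO and 0.223 CPM in WT (edgeR adjusted p = 0.017), but the genotypes overlapped. That call was lost with DESeq2 and without BAP1 KO replicate 2 or 3 or WT replicate 2, with log2 fold changes of 0.75, 0.66, 0.67 and 0.60 and adjusted p of 0.060, 0.058, 0.059 and 0.081. S100g, a small calcium-binding protein, was called higher on 52 counts over the BAP1 KO libraries, against 16 counts over the WT libraries (1.68 ± 0.43, edgeR adjusted p = 0.0011). The bladder uroplakins Upk2 and Upk3a had 1 and 0 counts over the BAP1 KO libraries and 1 and 1 counts over the WT libraries. Upk3bl, the nearest relative of Upk3b, had 5 counts in BAP1 KO and 3 counts in WT, and reads that align to both genes are not among these unique counts. Clec1b, the platelet receptor of podoplanin, was at 0.247 CPM in BAP1 KO and 0.338 CPM in WT (edgeR adjusted p = 0.19).

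Partners and reported targets of WT1 moved both ways. Of 18 genes, 15 were tested, and 5 rose, 6 fell and 4 missed the threshold. The share called was 73.3%, beside 61.1% of all genes tested, of which 29.0% were higher and 32.1% lower. Their median log2 fold change was 0.03. Wnt4, a WNT ligand of the gonad and kidney, rose to 132.7 ± 1.68 CPM in BAP1 KO, against 97.1 ± 3.55 CPM in WT (SD, log2 fold change 0.45 ± 0.03, edgeR adjusted p = 7.8e-16). Sox9, a transcription factor, and Nphs1, which encodes nephrin of the kidney filter, had log2 fold changes of 0.29 ± 0.06 and 0.45 ± 0.14, Sox9 with 8.75 CPM in BAP1 KO and 7.17 CPM in WT and Nphs1 with 1.28 CPM in BAP1 KO and 0.946 CPM in WT. Spry1, an inhibitor of growth factor signalling, fell to 20.4 ± 0.742 CPM in BAP1 KO, against 36.7 ± 2.19 CPM in WT (-0.85 ± 0.04, edgeR adjusted p = 1.3e-17). Bcl2, a survival protein, Erbb3, a growth factor receptor, Cited2, a coactivator, and Pawr, a protein that binds WT1, had log2 fold changes of -0.75 ± 0.04, -0.94 ± 0.12, -0.20 ± 0.03 and -0.14 ± 0.03. The corepressor Basp1 was at 221 CPM in BAP1 KO and 217 CPM in WT, and Wtap, which is also known as a partner of WT1, at 19.9 CPM in BAP1 KO and 19.3 CPM in WT (edgeR adjusted p = 0.40 and 0.35).

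Markers of other cells were measured beside those of mesothelium, and their calls stand against 29.0% higher and 32.1% lower over all genes tested. The 10 mesothelial markers summed to 623 to 630.4 normalized RPKM in BAP1 KO and 599 to 609 in WT. The 12 macrophage markers summed to 14098 to 14721 in BAP1 KO and 11683 to 12036 in WT, of which 5 rose, 6 fell and 1 did not pass. Most of this sum was Lyz2, lysozyme, with a mean normalized RPKM of 10386 in BAP1 KO and 7835 in WT. In CPM, Lyz2 stood at 11024 in BAP1 KO and 8386 in WT. The 12 fibroblast markers summed to 3356 to 3497 in BAP1 KO and 4221 to 4494 in WT, of which 11 fell and 1 did not pass. Fibroblasts can also express Pdpn. Smooth muscle and pericyte markers summed to 5462 to 5582 in BAP1 KO and 5351 to 5564 in WT, of which 3 rose, 3 fell and 3 did not pass. The 7 blood endothelial markers summed to 18.4 to 19.6 CPM in BAP1 KO and 29.0 to 29.9 CPM in WT, with Cldn5 at 0 counts in BAP1 KO and 2 counts in WT. Of the 5 tested, 4 fell and 1 did not pass. The 3 lymphatic endothelial markers summed to 6.39 to 6.81 normalized RPKM in BAP1 KO and 7.11 to 7.68 in WT, but in CPM to 23.6 to 24.9 in BAP1 KO and 21.8 to 23.3 in WT, so the direction of this sum differed by scale. Of these 3, 2 rose and 1 fell. Adipocyte markers summed to 53.7 to 57.4 in BAP1 KO and 64.9 to 68.7 in WT, a sum led by Fabp4, which fell, while the other 3 tested (Adipoq, Plin1 and Cidec) rose and Lep had no counts. The lymphocyte markers summed to 1.46 to 1.65 in BAP1 KO and 1.83 to 1.94 in WT, and of the 4 tested 1 rose, 1 fell and 2 did not pass. The 6 markers of other epithelia summed to less than 1 in every library, and only Krt14 among them was tested, which rose. The part of other cells in the changes of the mesothelial markers was not tested.

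The genes whose log2 CPM followed a marker most closely over the 8 libraries are given as a description. With Msln they were Cilk1, Ptger4 and Pml (Pearson r of 0.998, 0.998 and 0.997), and with Wt1 Nfe2l1, Nfam1 and Atf5 (0.999 each). Because the 8 libraries fall into 2 genotypes, 1403 of 9271 candidate genes correlated with Msln above 0.95 and 1375 of 9270 with Wt1. With Upk3b they were Tmem203, Slc7a7 and Hic1 (0.957, 0.933 and 0.905), and only 1 gene exceeded 0.95.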

How the data were processed

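RNA from 8 libraries of mouse omental mesothelial cells was analysed, 4 BAP1 KO and 4 WT, grouped by the genotype in the labels. Per the labels' protocols, 0.5 µg of RNA entered a TruSeq RNA v2 library, sequenced as single-end reads of 50 bp. GSNAP and GRCm38 are named in the submitters' processing notes; the version of the aligner, the annotation and the strand setting are not stated. Per the file headers, deposited counts are uniquely aligning reads of a gene model. The authors adjusted the RPKM with size factors, per the file headers, and these served for levels per length only. Symbols came from RefSeq GRCm38.p6 for 31049 identifiers and from GENCODE vM21 for 77; 5402 of the 36528 identifiers had none.

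The main test was edgeR 4.0.16 in R 4.3.3 (robust quasi-likelihood fit, TMM scaling, filterByExpr by genotype), with Benjamini-Hochberg adjustment over all genes. A standard error is the log2 fold change over the square root of F. CPM use the TMM-adjusted total. Totals per library set the counting error. The test was tested on simulated counts. The members and lists were chosen with earlier results of these data known. Genes named are Bap1, the 10 markers, up to 8 passing genes of each of 3 lists by smallest adjusted p, and the 3 genes of at least 10 CPM most correlated with Msln, Wt1 and Upk3b (log2 CPM, prior count 2). Values outside that rule are named as not passing, not tested or as markers of other cells. Ratios to Upk3b were planned for 9 pairs, and 8 could be formed, since Calb2 had counts of 0. Alternatives were RLE, upper quartile or no scaling factors, no filter (at least 1 count in all) or CPM above 1 in 4 libraries, DESeq2 1.42.0, limma-voom (limma 3.58.1) and each library left out. The labels name no batch, and replicate numbers follow accession order.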

Additional observations from a re-analysis of the deposited data

Results flagged for a closer look

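In 64 groups of 4 libraries (each tested marker, Bap1 and each named list gene, by genotype), 3 held a library far from the other 3, where chance gives about 1 in 20. Pdpn in BAP1 KO replicate 2 stood at 250.6 CPM, with the other BAP1 KO libraries at 235.0 to 237 CPM. Igfbp5 in BAP1 KO replicate 4 stood at 8.37 CPM, with the others at 7.88 to 7.91 CPM. Lrrn2 in WT replicate 4 stood at 42.8 CPM, with the other WT libraries at 40.6 to 40.9 CPM.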

How the results depend on the processing

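Under the 15 alternatives, the numbers of markers that rose and fell remained 4 and 3, and each of the 7 kept its direction and passed. Over all genes, 4465 to 5159 were higher and 4878 to 5754 lower across the settings, and 4650 to 4883 and 5172 to 5370 with a library left out. Of the other mesothelial genes, 6 to 8 rose and 18 to 19 fell. The log2 fold change of Upk3b, which did not pass under any alternative, changed sign with upper quartile factors (-0.0038) and with library totals alone (-0.010), and ran from -0.0060 to 0.013 with a library left out. That of Pdpn ran from -0.032 to 0.0014 with a library left out. The ratios to Upk3b were also tested with a library left out (exact permutation over 35 splits, added after seeing the data). The 6 that passed did so each time (adjusted p = 0.038). This was fixed in advance, since groups that do not overlap stay apart when a library is left out. The ratio of Gpm6a did not pass (0.065 to 0.13), and the log2 difference for Pdpn ran from -0.043 to 0.0028. Calb2 and Itln1 had too few counts to be tested at this depth. No paired analysis was possible because the labels give no replicate numbers.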
